A study of Mus musculus with 8 samples.

Results

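The 33 genes described here encode the proteins that carry glucose and lactate across the cell membrane, the enzymes that split glucose to pyruvate and lactate, the enzymes that pass pyruvate on to the mitochondrion, and Hif1a, the oxygen-regulated subunit of hypoxia-inducible factor. They were taken by name: a probe belonged to the set when the gene name printed for it in the scanner file was one of the 33 names. No measured value entered that assignment of probes, but the names were chosen with earlier results of these data known. All 33 names were on the array, with 55 probes among the 39429 non-control probes and 30175 gene names of the design. All 33 passed the filter on dim probes, through 53 of the 55 probes, whereas 17977 of all 30175 names passed it. The probes that did not pass were the second probes of Pfkfb3 and Pfkfb4.

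The arrays measured mRNA in mouse embryonic stem cells (ESCs), labelled E14 and grown without feeders on gelatin in serum medium with LIF. All cells were infected with lentivirus carrying a short hairpin RNA (shRNA) and harvested 72 hours later. There were 4 groups of 2 arrays, named by the hairpin: control KD (a hairpin against GFP), Tip60 KD, Hdac6 KD, and double KD, in which Tip60 and Hdac6 were depleted in the same cells. Tip60 (gene Kat5) is the acetyltransferase of the Tip60-p400 chromatin complex and Hdac6 is a deacetylase. Each target was depleted with 1 hairpin, chosen among several for its strength, so an effect of the hairpin itself cannot be told apart from that of losing the target. The study's methods call the replicates biological. The labels do not say whether A and B came from separate infections or cultures, and the p-values below measure only the spread between these arrays.

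Values are log2 of the probe's processed signal over the 75th percentile of its array, so that 0 is the signal of a probe at that percentile and 1 unit is a doubling. Signals under a common floor of -2.78 were set to it. Changes are differences of these values, given with the standard error (SE) of a limma fit over all 17977 genes, and a gene is said to have risen or fallen only where its p adjusted over all those genes was under 0.1. The targeted transcripts moved with the labels: Kat5 gave 1.25 and 1.30 on the control KD arrays, -0.10 and -0.08 after Tip60 KD and -0.19 and 0.12 after double KD, and Hdac6 gave 2.13 and 2.10 on the control KD arrays, -0.37 and -0.40 after its own KD and 0.21 and 0.26 after double KD. Hdac6 was also lower after Tip60 KD, at 1.65 and 1.68. The correlation between replicate arrays was 0.986 to 0.989. All 10 ESC markers were detected, with a summed linear signal of 316 to 358 times the 75th percentile on the 7 arrays where all were measured. Of 8 markers each, 5 fibroblast or feeder, 3 primitive endoderm, 5 neural progenitor and 3 mesoderm markers passed the filter, and their summed signals lay between 1.02 and 5.21.

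Glycolysis turns glucose into pyruvate in the cytosol and yields ATP without oxygen. Pyruvate is then either reduced to lactate and exported, or oxidised in the mitochondrion by the pyruvate dehydrogenase complex, which the Pdk kinases switch off. Mouse ESCs use glycolysis heavily even where oxygen is plentiful, and many of these genes are textbook targets of hypoxia-inducible factor and of Myc.

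More of the 33 genes fell than rose upon each knock-down. Upon Tip60 KD 19 of 33 changed, 15 lower and 4 higher, where 40.4% of all genes changed, 21.3% lower and 19.1% higher. Upon Hdac6 KD 19 changed, 14 lower and 5 higher, against 30.0% of all genes, 16.0% lower and 14.0% higher. Upon double KD 20 changed, 17 lower and 3 higher, against 33.7% of all genes, 17.7% lower and 16.0% higher. The median log2 change of the 33 was -0.25, -0.19 and -0.26 in that order, beside medians of 0.05, 0.02 and 0.05 over all genes. The 3 comparisons share the same 2 control arrays, and in bulk RNA fewer cells that make a transcript and less of it per cell cannot be told apart. Every changed gene had the same sign on both slides, the slide being the same as the replicate letter. The calls came from these same arrays, so the shared sign is no separate support for them.

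**Figure D1:**
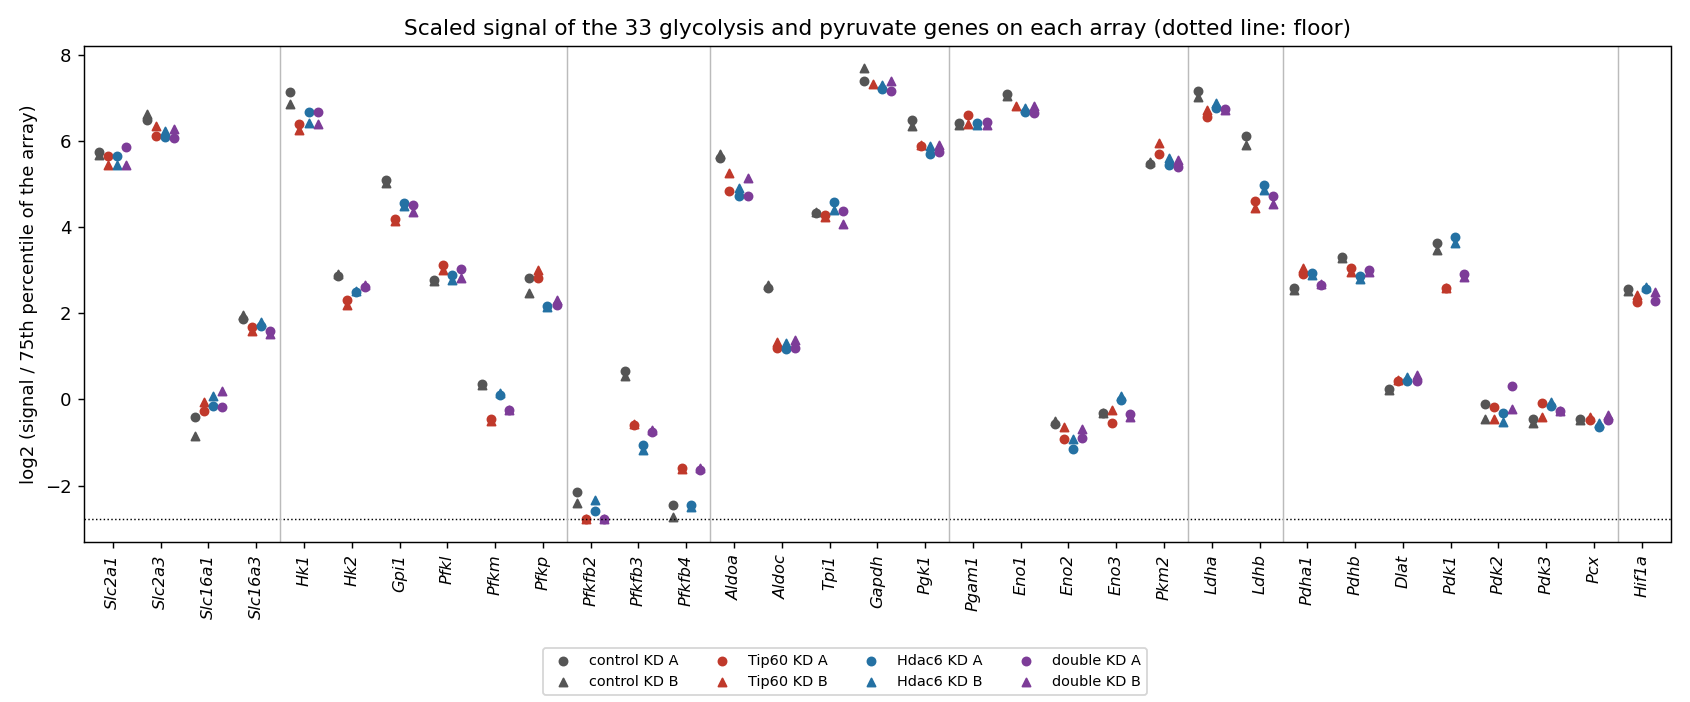
Log2 signal over the 75th percentile of the array (vertical axis) for the 33 genes in pathway order (horizontal axis; grey lines part the pathway steps), with 1 point per array, circles for replicate A and triangles for replicate B, and the colour giving the knock-down. The dotted line is the floor of -2.78, where the Tip60 KD and double KD points of Pfkfb2 lie; Gapdh and Eno1 lack a Tip60 KD point for replicate A.

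In all 3 knock-downs 11 genes fell: Slc2a3, Hk1, Hk2, Gpi1, Pfkm, Pfkfb3, Aldoa, Aldoc, Pgk1, Ldhb and Pdhb. The share of all genes with each pattern described here was not counted, and all 3 comparisons use the same control arrays. In this fit, which does not pair the arrays, no gene rose in all 3, none rose in one knock-down and fell in another, and 7 changed in none. With the arrays paired by replicate letter 15 genes fell in all 3, Slc16a1 and Dlat rose in all 3, none moved in opposite directions and 4 changed in none (Slc2a1, Tpi1, Pgam1 and Pcx). The pairing added calls upon Tip60 KD for Slc16a1 (adjusted p = 0.0958), Gapdh (0.0551), Eno1 (0.0704), Eno2 (0.0315), Dlat (0.0424), Pdk3 (0.0989) and Hif1a (0.0776). It added Gapdh (0.038) and Ldha (0.0633) upon Hdac6 KD, and Pfkl (0.0754), Gapdh (0.0504), Eno2 (0.0318) and Pdk2 (0.0295) upon double KD. Pfkfb3, Aldoc and Ldhb lost over 1 log2 unit in each knock-down, and they are the 3 genes of the set with the strongest loss in every one.

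These losses have to be read beside the signal level, because 13 of the 33 genes were among the 1171 genes with a mean signal of 4 or more, and the bright genes as a whole shifted down under the scaling used here. In that class the median change of all genes was -0.18 upon Tip60 KD, -0.19 upon Hdac6 KD and -0.22 upon double KD, and that of the 13 genes was -0.33, -0.36 and -0.36. When the arrays were quantile normalised instead, the medians of the bright class came to -0.01, -0.00211 and 0.00663, those of the 13 genes to -0.13, -0.13 and -0.10, and those of the 33 genes to -0.13, -0.13 and -0.10. Quantile normalisation ended the call of 6 genes upon Tip60 KD (Aldoa, Hk1, Ldha, Pgk1, Slc16a3 and Slc2a3), of 8 upon Hdac6 KD (Aldoa, Dlat, Eno1, Hk1, Pdk3, Pfkm, Slc16a1 and Slc2a3) and of 8 upon double KD (Aldoa, Eno1, Hk1, Hk2, Ldha, Pfkp, Slc16a1 and Slc2a3). Under it 9 genes were lower and 5 higher upon Tip60 KD, 9 lower and 2 higher upon Hdac6 KD, and 10 lower and 3 higher upon double KD. The shares of all genes given above belong to the other scaling and do not apply to these counts. The median changes of all genes under quantile normalisation were 0.05, 0.04 and 0.03.

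**Figure D2:**
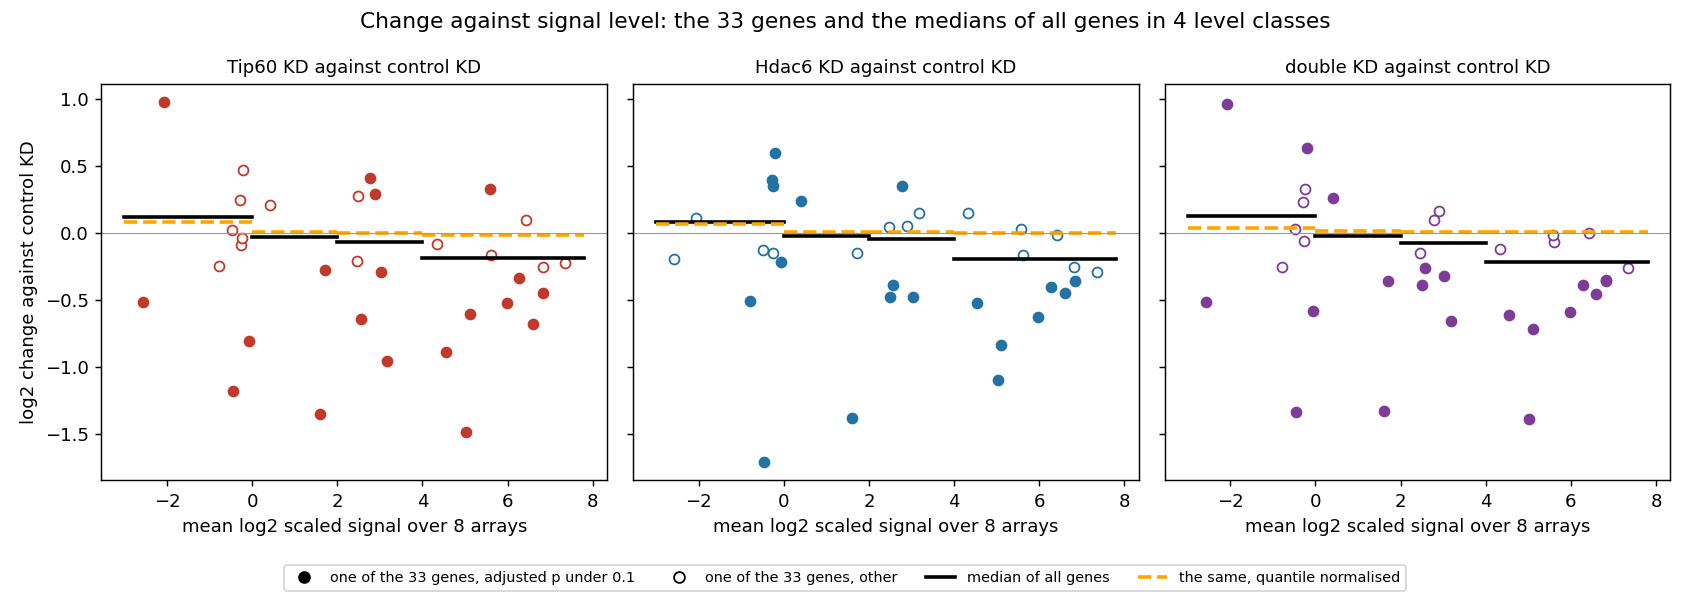
Log2 change against control KD (vertical axis) against the mean log2 signal over the 8 arrays (horizontal axis) for the 33 genes, 1 panel per knock-down; filled points have an adjusted p under 0.1. Black lines are the median change of all genes in 4 signal classes, down to -0.18, -0.19 and -0.22 in the brightest, and dashed orange lines the same after quantile normalisation, where the brightest class lies between -0.01 and 0.00663.

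Among the carriers of glucose and lactate Slc2a3 and Slc16a3 fell and Slc16a1 rose in some or all knock-downs. Slc2a1 (Glut1), the basal glucose carrier, changed in no knock-down, with changes of -0.17, -0.16 and -0.07 and 95% intervals that reached -0.56 at the lowest. Slc2a3 (Glut3), a high-affinity neuronal and embryonic carrier, was at 6.48 and 6.64 in control KD and between 6.08 and 6.34 on the 6 knock-down arrays, with no overlap. Its changes were -0.33 (SE 0.13, adjusted p = 0.099) upon Tip60 KD, -0.40 (adjusted p = 0.0765) upon Hdac6 KD and -0.39 (adjusted p = 0.0771) upon double KD, but in the authors' normalised values they were 0.05, 0.06 and 0.12, so its direction differed between the scalings. The 3 calls held in 4, 8 and 6 of 17 alternatives. Slc16a1 (Mct1), the monocarboxylate carrier of most tissues, rose by 0.60 upon Hdac6 KD and 0.64 upon double KD, each of which was called in 6 of 17 alternatives. Slc16a3 (Mct4), the lactate exporter of glycolytic cells, fell by 0.28 upon Tip60 KD and by 0.36 upon double KD.

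At the entry of glucose into the pathway Hk1, Hk2 and Gpi1 fell in all 3 knock-downs. Hk2, the inducible hexokinase that phosphorylates glucose, gave 2.86 and 2.91 on the control KD arrays, 2.31 and 2.19 after Tip60 KD, 2.50 and 2.51 after Hdac6 KD and 2.61 and 2.65 after double KD. All control values were above all others, and the double KD values were the nearest to them. The changes were -0.64 (SE 0.08, adjusted p = 0.00246), -0.39 (adjusted p = 0.0191) and -0.26 (adjusted p = 0.0551), of which the last was lost under quantile normalisation. Hk1, the constitutive hexokinase, gave 7.12 and 6.86 on the control KD arrays, 6.38 and 6.25 after Tip60 KD, 6.66 and 6.43 after Hdac6 KD and 6.68 and 6.39 after double KD. It fell by 0.68 (SE 0.15, adjusted p = 0.0203), 0.45 (adjusted p = 0.0955) and 0.46 (adjusted p = 0.0823). The calls upon Hdac6 KD and double KD each held in 4 of 17 alternatives, over which the changes came as near to 0 as -0.14 and -0.13, and in 2 and 1 of the 8 fits that each left out an array. A second probe of Hk1 fell by 0.65 upon Tip60 KD, while the dimmest probe gave 0.10, 0.35 and 0.36 and passed in none.

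Gpi1, the isomerase that turns glucose 6-phosphate into fructose 6-phosphate, gave 5.09 and 5.01 on the control KD arrays, 4.18 and 4.14 after Tip60 KD, 4.55 and 4.50 after Hdac6 KD and 4.52 and 4.35 after double KD. The groups did not overlap with control KD, and Tip60 KD was the lowest. The changes were -0.89 (SE 0.09, adjusted p = 0.00153), -0.53 (adjusted p = 0.012) and -0.62 (adjusted p = 0.00637), or 53.9%, 69.5% and 65.2% of control KD. All 3 probes of Gpi1 fell in every knock-down, and none of the 17 alternatives ended a call of the gene.

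Phosphofructokinase, which makes fructose 1,6-bisphosphate and is the main point of control of the pathway, is built from 3 gene products that moved differently. Pfkm, the muscle subunit, gave 0.35 and 0.33 on the control KD arrays, -0.45 and -0.49 after Tip60 KD, 0.10 and 0.15 after Hdac6 KD and -0.24 and -0.24 after double KD. It fell by 0.81 (SE 0.07, adjusted p = 0.00107) upon Tip60 KD, by 0.21 (adjusted p = 0.0751, held in 8 of 17 alternatives) upon Hdac6 KD and by 0.58 (adjusted p = 0.00368) upon double KD. Between Tip60 KD and Hdac6 KD the difference was -0.60 (adjusted p = 0.00531). Pfkl, the liver subunit, rose by 0.29 (adjusted p = 0.0772) upon Tip60 KD, and its other changes were 0.06 and 0.17.

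Pfkp, the platelet subunit, gave 2.82 and 2.47 on the control KD arrays, 2.82 and 3.02 after Tip60 KD, 2.17 and 2.16 after Hdac6 KD and 2.20 and 2.31 after double KD. It was 0.76 (SE 0.14, adjusted p = 0.0186) higher in Tip60 KD than in Hdac6 KD. It fell by 0.48 (adjusted p = 0.0597) upon Hdac6 KD and by 0.38 (adjusted p = 0.0987) upon double KD. The latter call held in 4 of 17 alternatives, with changes from -0.56 to -0.15, and in 1 of the 8 fits that each left out an array. The probe behind these values lies at chr13:6581718-6583872 (mm9, minus strand) and spans 2155 bases of the genome with its 60 bases, so it crosses an exon junction. Its sequence is shown because the other probe of the gene gave a different picture.
Pfkp probe: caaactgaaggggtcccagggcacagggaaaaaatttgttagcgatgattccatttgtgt
The other probe, at chr13:6579124-6579183, was dim, at -1.38 and -0.24 in control KD and between -1.73 and -1.30 elsewhere. It gave -0.91 (adjusted p = 0.095) upon Tip60 KD, where the first probe gave 0.28, so the direction for Pfkp upon Tip60 KD depends on the probe.

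The Pfkfb enzymes make and remove fructose 2,6-bisphosphate, the strongest activator of phosphofructokinase, and all 3 measured members changed upon Tip60 KD. Pfkfb3, the form with the highest kinase activity, gave 0.66 and 0.55 on the control KD arrays, -0.59 and -0.56 after Tip60 KD, -1.05 and -1.17 after Hdac6 KD and -0.75 and -0.71 after double KD. No group overlapped another, and Hdac6 KD was the lowest. The changes were -1.18 (SE 0.08, adjusted p = 0.000688), -1.71 (adjusted p = 0.00101) and -1.34 (adjusted p = 0.00101), or 44.1%, 30.5% and 39.6% of control KD.

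Pfkfb4 moved the other way. It gave -2.44 and -2.74 on the control KD arrays, -1.59 and -1.62 after Tip60 KD, -2.46 and -2.49 after Hdac6 KD and -1.65 and -1.60 after double KD, so that the 2 groups with the Tip60 hairpin stood above the 2 without it. It rose by 0.98 (SE 0.11, adjusted p = 0.00214) upon Tip60 KD and by 0.96 (adjusted p = 0.00357) upon double KD, and the change upon Hdac6 KD was 0.12 (adjusted p = 0.544). Against Hdac6 KD it was 0.87 (adjusted p = 0.00729) higher after Tip60 KD and 0.85 (adjusted p = 0.0182) higher after double KD. Its control values lie close to the floor. Pfkfb2, the heart form, was at -2.14 and -2.39 in control KD and at the floor on all Tip60 KD and double KD arrays, and its change of -0.51 in both (adjusted p = 0.0239 and 0.0305) is therefore a lower limit of the loss.

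**Figure D3:**
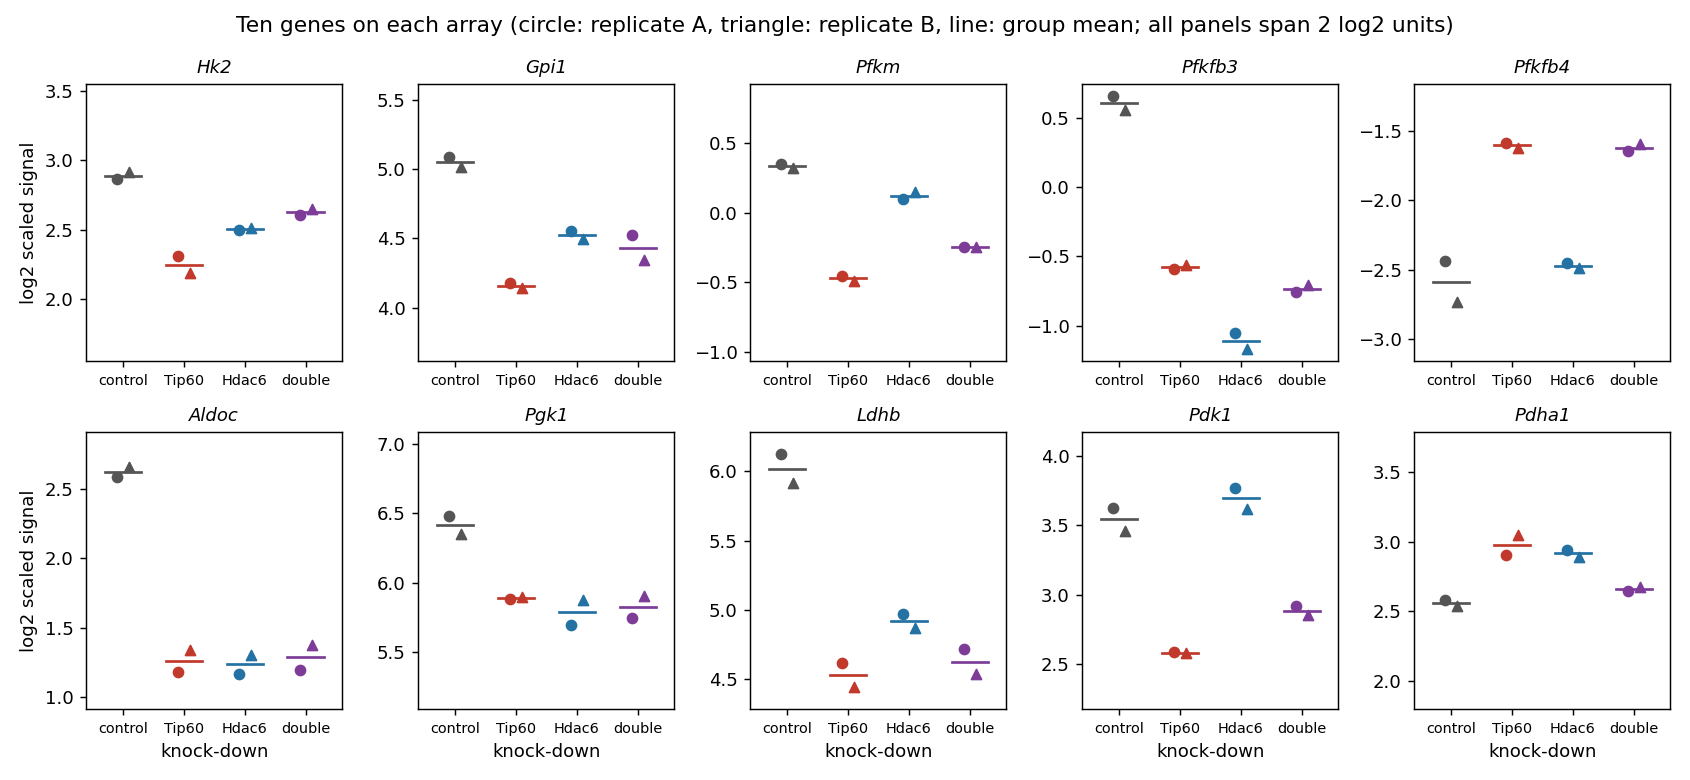
Log2 signal over the 75th percentile (vertical axes, all spanning 2 units) of 10 genes on each array by knock-down (horizontal axes); circles are replicate A, triangles replicate B and lines group means. Pfkfb3, Aldoc and Ldhb are low in all 3 knock-downs, Pdk1 is low and Pfkfb4 high in the groups with the Tip60 hairpin, and Pdha1 is high in the single knock-downs.

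Aldolase and phosphoglycerate kinase fell, and the steps between them did not pass the test. Aldoc, the brain form of aldolase, which cleaves fructose 1,6-bisphosphate, gave 2.58 and 2.66 on the control KD arrays, 1.18 and 1.34 after Tip60 KD, 1.17 and 1.31 after Hdac6 KD and 1.20 and 1.38 after double KD. The 3 knock-downs overlapped each other, and all their values lay below those of control KD. The changes were -1.36 (SE 0.11, adjusted p = 0.000932), -1.38 (adjusted p = 0.00192) and -1.33 (adjusted p = 0.00165), and double KD differed from Tip60 KD by 0.02, with a 95% interval of -0.24 to 0.28.

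Aldoa, the ubiquitous aldolase, gave 5.59 and 5.70 on the control KD arrays, 4.83 and 5.25 after Tip60 KD, 4.71 and 4.90 after Hdac6 KD and 4.72 and 5.14 after double KD. It fell by 0.61 (SE 0.20, adjusted p = 0.0624), 0.84 (adjusted p = 0.0322) and 0.72 (adjusted p = 0.0464). Each of these calls was lost under quantile normalisation and without either control array. Pgk1, phosphoglycerate kinase, which makes the first ATP of the pathway, was at 6.48 and 6.35 in control KD and between 5.70 and 5.90 on all knock-down arrays. It fell by 0.52 (SE 0.10, adjusted p = 0.012), 0.63 (adjusted p = 0.011) and 0.59 (adjusted p = 0.0111). Its only probe is placed on chromosome 3 in the scanner files, while the RefSeq record it is matched to lies on chromosome X.

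Tpi1, triose phosphate isomerase, gave -0.08, 0.15 and -0.12, and Gapdh, the dehydrogenase often taken as a reference transcript, gave -0.22, -0.29 and -0.26. None of these changes had an adjusted p under 0.1 without pairing. A second, dimmer probe of Tpi1 gave 2.19 and 2.20 on the control KD arrays and 2.34 and 2.41 after Tip60 KD. It gave 2.32 and 2.28 after Hdac6 KD and 1.93 and 1.91 after double KD, so its direction differed between knock-downs. The Gapdh value upon Tip60 KD rests on 1 array, because the scanner software marked the spot on the other as an outlier. The 8 Gapdh probes did not move together: upon Tip60 KD one on chromosome 8 gave 0.65 (adjusted p = 0.0029) and one on chromosome 6 gave 0.55 (adjusted p = 0.009), while the others lay between -0.38 and 0.12. Over all probes 41.3% passed upon Tip60 KD, 30.8% upon Hdac6 KD and 34.6% upon double KD, and Gapdh had no probe that passed in the last pair.

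The last cytosolic steps before pyruvate showed little. Pgam1, phosphoglycerate mutase, lay between 6.36 and 6.60 on all 8 arrays, with changes of 0.10, -0.01 and 0.00181. Eno1, the main enolase, was at 7.09 and 7.05 in control KD and between 6.64 and 6.81 on the knock-down arrays where it was measured. It fell by 0.36 (adjusted p = 0.0581) upon Hdac6 KD and by 0.35 (adjusted p = 0.0558) upon double KD, calls lost under quantile normalisation. The neuronal enolase Eno2 fell by 0.51 (adjusted p = 0.0553) and the muscle enolase Eno3 rose by 0.35 (adjusted p = 0.0877) upon Hdac6 KD, the latter a call kept in 2 of the 8 fits that each left out an array. Pkm2, which is now named Pkm and encodes the pyruvate kinase that releases pyruvate, rose by 0.33 (adjusted p = 0.0899) upon Tip60 KD, a call kept in 1 of the 8 fits that each left out an array, and its other changes were 0.03 and -0.01.

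The lactate dehydrogenase subunits fell to different extents. Ldhb, the subunit of heart-type enzyme, which favours the use of lactate, gave 6.12 and 5.91 on the control KD arrays, 4.61 and 4.45 after Tip60 KD, 4.97 and 4.87 after Hdac6 KD and 4.72 and 4.54 after double KD. No knock-down value came near those of control KD. The changes were -1.49 (SE 0.12, adjusted p = 0.000966), -1.10 (adjusted p = 0.00386) and -1.39 (adjusted p = 0.00186), or 35.7%, 46.8% and 38.1% of control KD. Ldha, the subunit of muscle-type enzyme, which favours the making of lactate, was at 7.16 and 7.02 in control KD and between 6.56 and 6.89 on the knock-down arrays. It fell by 0.45 (SE 0.10, adjusted p = 0.0174) upon Tip60 KD and by 0.36 (adjusted p = 0.0457) upon double KD, and the change upon Hdac6 KD was -0.26 (adjusted p = 0.121). Both calls were lost under quantile normalisation, and in the authors' normalised values the double KD change was 0.02. Among its 3 probes one gave 0.16 upon Tip60 KD (adjusted p = 0.24).

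At the entry to the mitochondrion the subunits and the kinases parted. Pdha1, the catalytic E1 alpha subunit of pyruvate dehydrogenase, gave 2.58 and 2.54 on the control KD arrays, 2.90 and 3.05 after Tip60 KD, 2.94 and 2.89 after Hdac6 KD and 2.65 and 2.68 after double KD. It rose by 0.41 (SE 0.08, adjusted p = 0.0115) upon Tip60 KD and by 0.35 (adjusted p = 0.0285) upon Hdac6 KD, and the change upon double KD was 0.10 (adjusted p = 0.447). Pdhb, its E1 beta partner, was at 3.31 and 3.28 in control KD and between 2.79 and 3.05 elsewhere. It fell by 0.29 (SE 0.07, adjusted p = 0.0304), 0.47 (adjusted p = 0.0102) and 0.32 (adjusted p = 0.0287). Dlat, the E2 core of the complex, rose by 0.24 (adjusted p = 0.0985) upon Hdac6 KD and by 0.26 (adjusted p = 0.0713) upon double KD. These calls held in 6 and 9 of 17 alternatives, and in 2 and 1 of the 8 fits that each left out an array.

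Pdk1, a kinase that inactivates the complex and a known hypoxia-inducible gene, gave 3.63 and 3.46 on the control KD arrays, 2.59 and 2.58 after Tip60 KD, 3.77 and 3.62 after Hdac6 KD and 2.92 and 2.85 after double KD. Control KD and Hdac6 KD overlapped, and both groups with the Tip60 hairpin lay below them. It fell by 0.96 (SE 0.09, adjusted p = 0.0015) upon Tip60 KD and by 0.66 (adjusted p = 0.00632) upon double KD, and the change upon Hdac6 KD was 0.15 (adjusted p = 0.326). The difference of Tip60 KD from Hdac6 KD was -1.11 (adjusted p = 0.00306), and that of double KD from Hdac6 KD was -0.81 (adjusted p = 0.0148). Pdk3 rose by 0.40 (adjusted p = 0.0677) upon Hdac6 KD, again kept in 2 of those 8 fits. Pdk2 and Pcx, the carboxylase that turns pyruvate into oxaloacetate, passed in no knock-down without pairing. The changes of Pcx lay between -0.13 and 0.03, and those of Pdk2 between -0.15 and 0.33 with an SE of 0.22.

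**Figure D4:**
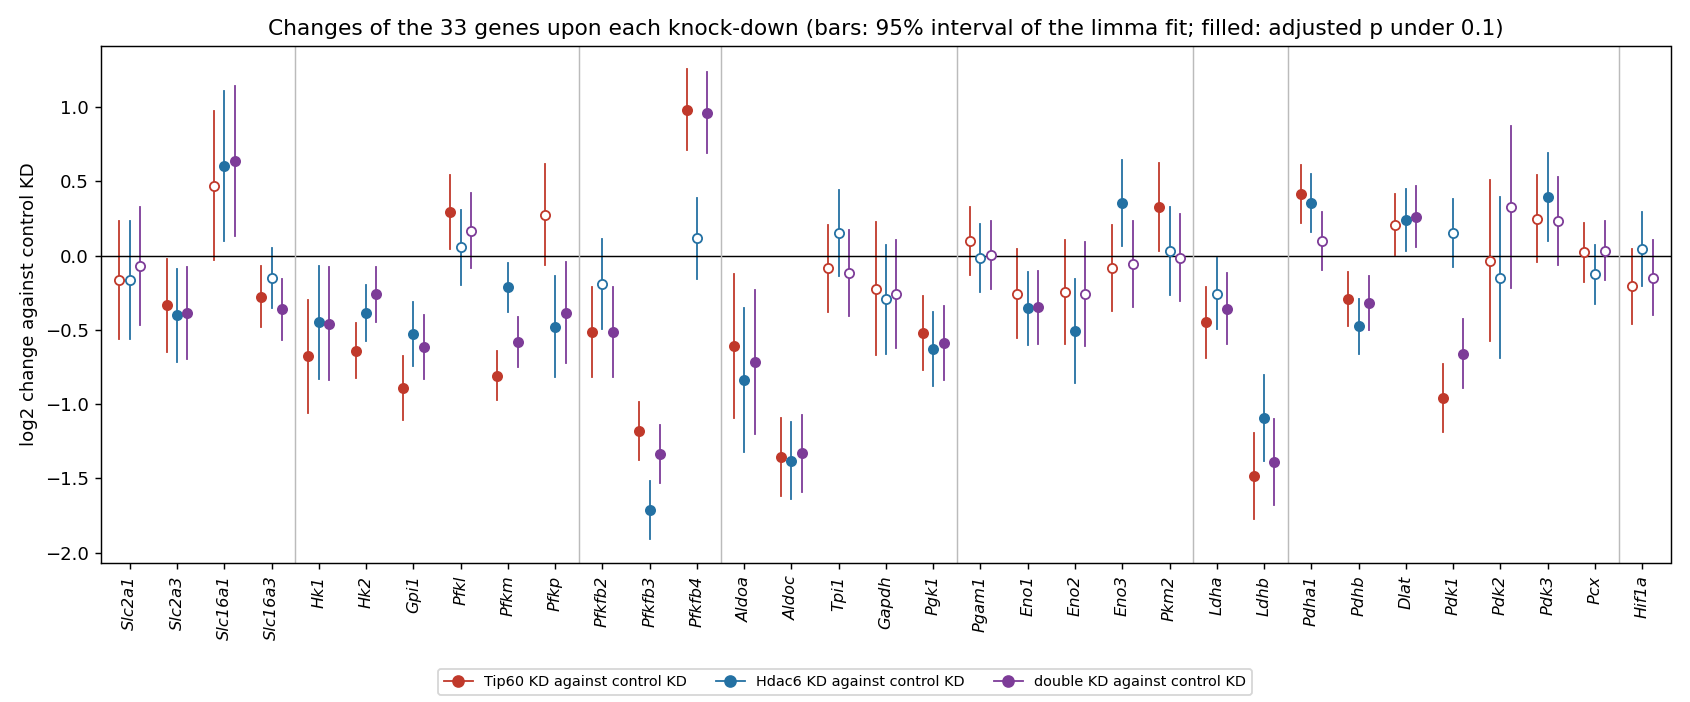
Log2 change against control KD (vertical axis) of the 33 genes in pathway order (horizontal axis) upon Tip60 KD (red), Hdac6 KD (blue) and double KD (purple); bars are 95% intervals of the limma fit, and filled points have an adjusted p under 0.1. Filled points below 0 gather from Hk1 to Pgk1 and at Ldhb, and filled points above 0 include Pfkfb4 upon Tip60 KD and double KD (0.98 and 0.96).

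The knock-downs were also compared with each other. The shares of all genes given here are those of the fit without pairing and do not apply to the paired counts. Between Tip60 KD and Hdac6 KD 9 of 33 genes differed, against 24.0% of all genes: Hk2, Gpi1, Pfkm, Eno3, Ldhb and Pdk1 were lower in Tip60 KD, and Pfkp, Pfkfb3 and Pfkfb4 were higher. Pairing the arrays by replicate letter raised that count to 17. Between double KD and Tip60 KD 2 genes differed, Hk2 at 0.38 (adjusted p = 0.0862) and Pfkp at -0.66 (adjusted p = 0.0913), where 4.07% of all genes did. With the arrays paired 9 genes differed. Neither gene passed when any 1 of the 8 arrays was left out. Between double KD and Hdac6 KD 4 genes differed (11 when paired), against 11.0% of all genes: Pfkfb3 (0.38, adjusted p = 0.0554) and Pfkfb4 were higher in double KD, and Pfkm (-0.37, adjusted p = 0.039) and Pdk1 were lower. That count was 0 without replicate A of Hdac6 KD and 1 without replicate B of Hdac6 KD or of double KD.

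The interaction term asks whether the change upon double KD differed from the sum of both single changes. Without pairing it passed for 9 of 33 genes, against 23.1% of all genes. With the arrays paired it passed for 18, a count to which that share does not apply. It was positive for 8 of the 9, Hk2, Gpi1, Pfkm, Pfkfb3, Aldoc, Pgk1, Ldhb and Pdhb, so that double KD lowered them by less than that sum. The share of all genes by sign of the term is not given here. Hdac6 itself was less depleted in double KD (mean 0.24) than in Hdac6 KD (mean -0.39), and the part of this difference in the term was not tested. For Pfkfb3 the term was 1.56 (SE 0.11, adjusted p = 0.0068) and for Aldoc it was 1.41 (SE 0.15, adjusted p = 0.00816). Among the 9 it was negative for Pdha1 alone, at -0.67 (SE 0.11, adjusted p = 0.0183).

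Hif1a did not pass the test in any knock-down without pairing, and of its measured regulators some fell and some rose. Hif1a gave 2.57 and 2.51 on the control KD arrays, 2.25 and 2.42 after Tip60 KD, 2.56 and 2.61 after Hdac6 KD and 2.30 and 2.49 after double KD, and it changed by -0.21 (95% interval -0.46 to 0.05), 0.04 and -0.15, with no adjusted p under 0.1 without pairing. Among 8 other regulators of the factor 5 fell and 1 rose upon Tip60 KD, 3 fell and 1 rose upon Hdac6 KD, and 3 fell and 1 rose upon double KD, with median changes of -0.29, -0.02 and -0.28. Of all genes 21.3%, 16.0% and 17.7% fell and 19.1%, 14.0% and 16.0% rose. The list was counted without regard to whether a gene activates or restrains the factor, so these counts give no direction for its activity. Arnt, the partner subunit of Hif1a, fell by 1.44 (SE 0.15, adjusted p = 0.003), 0.41 (adjusted p = 0.0805) and 0.87 (adjusted p = 0.0098), the first on 1 Tip60 KD array because the other spot was left out.

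The known targets of hypoxia-inducible factor outside glycolysis mostly fell. Of 17 named, 13 passed the filter, and of these 9 fell and 1 rose upon Tip60 KD, 11 fell and none rose upon Hdac6 KD, and 9 fell and 1 rose upon double KD, with median changes of -0.70, -1.14 and -0.60. Of all genes 21.3%, 16.0% and 17.7% fell. This list, like the others, was chosen with earlier results of these data known. Ddit4, a stress-induced inhibitor of mTORC1, changed by -2.16, -1.59 and -1.69, and Bhlhe40, a transcriptional repressor, by -2.13, -1.33 and -1.90, all with adjusted p of 0.0019 or less. Among 8 genes of the Myc and Mondo network, which also drive glucose use, 2 rose and 3 fell upon Tip60 KD, 2 rose and 2 fell upon Hdac6 KD, and 1 rose and 2 fell upon double KD, against 40.4%, 30.0% and 33.7% of all genes called in either direction. Myc rose by 3.14, 1.95 and 3.07, and Txnip, a glucose-induced brake on glucose uptake, fell by 2.88, 2.51 and 2.17.

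The counts for other branches of the same metabolism are to be read against the same shares of all genes, 21.3% lower and 19.1% higher upon Tip60 KD, 16.0% and 14.0% upon Hdac6 KD, and 17.7% and 16.0% upon double KD. Of 30 further glycolysis and pyruvate genes that passed the filter, 9 fell and 4 rose upon Tip60 KD, 11 fell and 3 rose upon Hdac6 KD, and 9 fell and 5 rose upon double KD. Among them Pdk4, another kinase of the pyruvate dehydrogenase complex, fell by 1.63, 1.46 and 1.34, and Fbp1, the gluconeogenic phosphatase that opposes phosphofructokinase, rose by 1.27 upon Tip60 KD and by 1.28 upon double KD. In the serine branch, which leaves glycolysis at 3-phosphoglycerate, 3 of 5 fell upon Tip60 KD, 2 upon Hdac6 KD and 3 upon double KD, and none rose. Psat1 fell by 1.22, 0.55 and 0.98 and Psph by 1.07, 0.58 and 0.74. Of 10 pentose phosphate genes 4 rose and 2 fell upon Tip60 KD, 3 rose and 2 fell upon Hdac6 KD, and 3 rose and 2 fell upon double KD. Prps1 fell by 1.11 and Pgd rose by 0.83 upon Tip60 KD. Of 18 genes of the tricarboxylic acid cycle 3 rose and 3 fell upon Tip60 KD, none rose and 7 fell upon Hdac6 KD, and 1 rose and 4 fell upon double KD. Dld rose by 0.50 and Sucla2 by 0.40 upon Tip60 KD.

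Markers of other lineages changed in a few cases beside these results. Upon Tip60 KD 4 of 10 ESC markers rose and 1 fell, 2 of 5 fibroblast or feeder markers rose, and 1 neural and 1 mesoderm marker rose. Summed over the neural list the linear signal came to 2.19 and 2.42 with the control hairpin, 4.12 and 4.48 with that against Tip60, 2.52 and 2.86 with that against Hdac6 and 3.83 and 4.18 with both. Tubb3, a tubulin of neurons, was the single neural marker that passed, rising by 1.94, 0.51 and 1.75. Sox1 changed by -0.01, 0.07 and 0.03, Nes did not pass, and Pax6 and Neurod1 were at the floor on both control KD arrays. Their part in the changes of the glycolytic genes was not tested.

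Promoters are given for the 3 genes that lost over 1 log2 unit in every knock-down. These genes did not move alike throughout: Pfkfb3 was higher and Ldhb lower in Tip60 KD than in Hdac6 KD. Each window holds the 250 bases before and 50 after a RefSeq start site (GRCm38.p6), read 5′ to 3′ on the gene's strand. Every ACGTG, a form of the core of the element bound by hypoxia-inducible factor, or its reverse complement CACGT is in capitals. Other forms of the core were neither marked nor counted. The letters CACGTG, the E-box read by Myc, hold ACGTG on both strands.
Pfkfb3, chr2:11502041-11502340, minus strand: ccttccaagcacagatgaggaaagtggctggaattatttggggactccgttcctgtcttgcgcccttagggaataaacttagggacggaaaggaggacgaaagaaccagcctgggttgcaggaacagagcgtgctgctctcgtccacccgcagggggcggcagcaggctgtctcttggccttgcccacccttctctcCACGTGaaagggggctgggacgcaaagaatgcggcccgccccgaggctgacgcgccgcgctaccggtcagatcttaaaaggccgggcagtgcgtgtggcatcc
Pfkfb3, chr2:11553880-11554179, minus strand: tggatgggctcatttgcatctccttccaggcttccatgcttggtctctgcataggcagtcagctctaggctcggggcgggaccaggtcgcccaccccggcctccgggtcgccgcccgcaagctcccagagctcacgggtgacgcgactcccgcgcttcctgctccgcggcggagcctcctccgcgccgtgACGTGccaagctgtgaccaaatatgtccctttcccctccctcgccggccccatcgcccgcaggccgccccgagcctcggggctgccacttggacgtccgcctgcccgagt
Aldoc, chr11:78322823-78323122, plus strand: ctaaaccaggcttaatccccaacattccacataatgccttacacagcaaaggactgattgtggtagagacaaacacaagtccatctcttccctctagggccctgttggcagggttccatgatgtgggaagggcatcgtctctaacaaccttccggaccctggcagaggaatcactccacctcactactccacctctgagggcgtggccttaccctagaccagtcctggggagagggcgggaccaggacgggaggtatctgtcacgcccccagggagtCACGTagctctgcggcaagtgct
Aldoc, chr11:78323948-78324247, plus strand: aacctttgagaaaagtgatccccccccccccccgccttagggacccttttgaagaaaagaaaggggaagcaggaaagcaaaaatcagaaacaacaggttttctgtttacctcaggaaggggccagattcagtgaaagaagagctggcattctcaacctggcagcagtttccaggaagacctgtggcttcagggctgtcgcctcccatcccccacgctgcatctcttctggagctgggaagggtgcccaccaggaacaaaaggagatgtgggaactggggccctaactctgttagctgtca
Ldhb, chr6:142507908-142508207, minus strand: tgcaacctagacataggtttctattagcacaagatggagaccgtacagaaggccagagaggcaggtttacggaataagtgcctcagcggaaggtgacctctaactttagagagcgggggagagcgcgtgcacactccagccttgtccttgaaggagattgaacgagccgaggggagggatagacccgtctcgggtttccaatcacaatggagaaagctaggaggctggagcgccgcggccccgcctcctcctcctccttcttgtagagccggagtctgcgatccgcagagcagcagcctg
Both Pfkfb3 windows hold ACGTG or its complement, the first as part of CACGTG. The first Aldoc window holds the complement, after the start site. The second Aldoc window and the Ldhb window hold neither. Over the whole set 32 of 33 genes had a window, 49 windows in all, since 12 genes had several. ACGTG or its complement was in 24 of the 49 (49.0%), against 19.6% of all 32851 windows of this length, and CACGTG was in 8 (16.3%) against 7.15%. Of the 18 windows of genes that fell in all 3 knock-downs 11 held ACGTG (61.1%), and of the other 31 windows 13 did (41.9%). Some windows of a gene overlap, as for Aldoa, so a site can be counted more than once. By gene, 8 of the 10 with a window that fell in all 3 held it, as did 12 of the other 22 and 5886 of 27025 over all windows.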

How the data were processed

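Gene expression was measured on 8 Agilent 1-colour mouse arrays, 1 per sample, with Cy3-labelled cRNA. Per the file headers the authors' scanner output was made with Agilent Feature Extraction 10.7.1.1 and holds the processed signal intensity of 43020 non-control spots per array, already background-subtracted. The deposited value table holds the authors' log2 values of the same arrays. Its ranks follow the median signal (Spearman's rho 1 on each array) and its column medians are 8.19 to 8.20. Its centring and normalisation are not given in the sources used here, and it served as an alternative. Probe positions are those of the files (mm9).

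Each array's intensity was divided by its 75th percentile over non-control spots. Spots marked as outliers were left out, spots of a probe were averaged, a common floor of 0.145 of the percentile was set, and log2 was taken. A probe was kept if it was well above background and over the floor on 2 or more arrays, and the brightest kept probe stood for its gene. Groups followed the sample titles. One limma 3.58.1 model (R 4.3.3) with 4 group means was fitted to 17977 genes (22518 probes for the values of single probes), with 2-sided tests, Benjamini-Hochberg adjustment over all genes and a threshold of 0.1, and 4 residual plus 1.81 prior degrees of freedom. The script was tested on simulated data.

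Replicate A of every group was on one slide and scan and replicate B on another, and each group kept its position on both slides, so position and group cannot be told apart. The A minus B difference of each gene was correlated from group to group (6 correlations of 0.65 to 0.80 over 17811 genes), so the letters pair the arrays, and a fit with the letter as a block was an alternative. No spot was saturated. Between 21896 and 40609 spots per array were well above background. On each slide control KD had the fewest, 31179 for A and 21896 for B, against 39622 to 40609 and 27056 to 40276. Its median subtracted background was the highest on each slide, 61.0 and 114, against 37.2 to 39.4 and 41.4 to 89.0. Every comparison with control KD rests on these arrays, so this difference and the group cannot be told apart. With 2 arrays a group their number limits the precision. Alternatives were normexp background correction (offset 50), quantile normalisation, the deposited log2 values, no filter on dim probes, a floor 10 times lower, missing values under the floor, the mean over probes, the arrays compared alone, the block, each array left out and a threshold of 0.05.

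The genes and gene lists were chosen with earlier results of these data known. All 33 genes are named by pathway step, and from each other list at most the 2 genes with the largest change that passed upon Tip60 KD. RefSeq symbols matched 50 of 55 probes, and 1 symbol had changed. Promoter windows are RefSeq's (GRCm38.p6).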

Additional observations from a re-analysis of the deposited data

Results flagged for a closer look

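The change upon depletion of Tip60 differed between cells with and without the Hdac6 hairpin for 9 genes, by the interaction term of the limma fit with p adjusted over all genes. The same test passed for 23.1% of all genes. With the arrays paired it passed for 18 of the 33, a count to which that share does not apply. The term, the Tip60 change with Hdac6 depleted minus that without, was 1.41 for Aldoc, 0.80 for Gpi1, 0.76 for Hk2, 1.19 for Ldhb, 0.45 for Pdhb, 1.56 for Pfkfb3, 0.44 for Pfkm, 0.56 for Pgk1 and -0.67 for Pdha1. The adjusted p-values ran from 0.0068 for Pfkfb3 to 0.0532 for Pgk1.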

How the results depend on the processing

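Of 1674 values of single genes under an alternative, 1404 kept their side of the threshold, 241 lost the call and 25 gained one. The other 4 changed direction, which was counted only where the gene was called in either fit. Uncalled values that changed sign are among the 1404. The 4 were all under the authors' log2 values: Slc2a3 at 0.0537 upon Tip60 KD, 0.0584 upon Hdac6 KD and 0.124 upon double KD, and Ldha at 0.0169 upon double KD. Called under every alternative were 9 genes upon Tip60 KD (Aldoc, Gpi1, Hk2, Ldhb, Pdha1, Pdk1, Pfkfb3, Pfkfb4 and Pfkm), 7 upon Hdac6 KD (Aldoc, Gpi1, Hk2, Ldhb, Pdhb, Pfkfb3 and Pgk1) and 8 upon double KD (Aldoc, Gpi1, Ldhb, Pdk1, Pfkfb3, Pfkfb4, Pfkm and Pgk1). The count upon Tip60 KD (19) stayed within 1.5 times under all alternatives: 14 under quantile normalisation and under the authors' values, 26 with the replicate block and 14 to 18 with an array left out. Upon Hdac6 KD (19) it was 11 under quantile normalisation, 12 under the authors' values, 10 without the filter, 9 at a threshold of 0.05, and 7 to 16 with an array left out: 9 and 8 without replicate A or B of control KD, 7 and 8 without replicate A or B of Hdac6 KD. Upon double KD (20) it was 11 with normexp, 13 under quantile normalisation, 9 under the authors' values, 13 with the compared arrays alone, 13 at 0.05, and 10 to 16 with an array left out: 10 and 12 without replicate A or B of control KD, 13 and 10 without replicate A or B of double KD. Double KD against Tip60 KD (2) gave 0 with normexp, quantile normalisation, the authors' values, the lower floor, the compared arrays alone, a threshold of 0.05 and every left-out array in limma, and 1 with the mean over probes. At an unadjusted p under 0.05 these fits gave 3 to 8 genes. Double KD against Hdac6 KD (4) gave 2 under quantile normalisation and under the authors' values, 0 with the compared arrays alone (unadjusted p under 0.05 for 6 genes) and 0 to 5 with an array left out. Tip60 KD against Hdac6 KD (9) gave 5 to 8 with an array left out, 5 without replicate A of Tip60 KD or either replicate of Hdac6 KD. The replicate block, which pairs the arrays by letter, gave 9, 11 and 17 for these 3 comparisons and 18 for the interaction (9, and 7 to 9 with an array left out). Against control KD it ended no call and added 13, among them Gapdh in all 3 knock-downs. The causes of these differences were not tested. Eno1 and Gapdh could not be tested without replicate B of Tip60 KD, and Pfkfb2 not with missing values under the floor. Probes close to the floor limit what can be said of Pfkfb2 and Pfkfb4.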
